A study of Mus musculus with 6 samples.

Results

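Mgmt, which encodes the enzyme that removes alkyl groups from the base guanine, was examined together with 41 other DNA repair and checkpoint genes in mouse colon tumor cells that express the Pak inhibitory domain (PID+) and in tumor cells without it (PID-). The 42 genes were taken from a list of gene symbols, chosen with earlier results of these data known. All 42 were found among the 21959 genes that could be compared. They were sorted into 8 groups by repair pathway, and 92 other genes of the same pathways were read beside them.

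DNA repair is divided among pathways that recognize different lesions: direct reversal, mismatch repair, base excision repair, nucleotide excision repair, homologous recombination, end joining and the Fanconi anemia pathway for crosslinks, with checkpoint kinases that hold the cell cycle while damage persists. In the colon, inherited defects of mismatch repair and of the glycosylase Mutyh predispose to tumors, and loss of MGMT expression is a known event in colorectal neoplasia. Genes of homologous recombination and of the Fanconi anemia pathway are used mostly in S and G2 phase, and their transcripts are known to be more abundant in dividing cells.

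RNA-seq of poly(A) RNA was made from primary cells of colon adenomas, with 3 samples per condition. Mice that carried ROSA26-PID together with CDX2P-NLS-Cre and APC^Δ/+ gave the PID+ cells, and in them Cre under the CDX2 promoter removes a stop cassette in front of a GST-tagged inhibitor peptide of the Group I Paks, a family of kinases. Littermates with CDX2P-NLS-Cre and APC^Δ/+ alone gave the PID- cells. Cre and the deleted Apc allele are therefore common to both conditions, the parental Cre and Apc lines were C57BL6/J, and the cohorts were kept to 8 months of age. The labels number the PID+ mice 4, 7 and 26 and the PID- mice 1, 2 and 3, and they call the latter normal and untreated, although the methods describe tumor cells. In the paper the PID+ lines carry the same numbers as in the labels, while its PID- lines carry other numbers. Sequencing sets are called replicated runs in the methods and separate mice in the labels. The sets of a condition were merged before quantification, so the table holds 1 pooled FPKM (fragments per transcript length and library total) per gene and condition. A single line could set a pooled value, and this cannot be seen in the data. The differences below have no replicates behind them, and p-values were not calculated.

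The cells were read against their tissue label with marker genes. Of 12 markers of intestinal epithelium 8 stood higher in PID+ cells (7 when the conditions were scaled to equal Gapdh) and 3 lower, with summed FPKM of 9087 in PID+ against 4994 in PID- cells. Krt18, a keratin of simple epithelia and the most abundant of them in PID+ cells, had 2843 and 1199. Krt20, a keratin of the gut, had 158 and 73.5, a log2 change of 1.10. Other markers of the intestinal lineage were low or absent in PID+ cells, and some were higher in PID- cells. Cdh17, an intestinal cadherin, had 1.67 in PID+ cells against 25.9 in PID- cells, with a log2 change of -3.33, the largest of these 12 markers and with intervals apart. Cdx2 had 0.542 and 8.04, Lgals4 had 1.86 and 3.43, Vil1 had 0.175 and 0.0614, and Cdx1 was listed at 0 in both conditions. The label of colon epithelium therefore rests in PID+ cells on keratins and junction genes more than on these other intestinal markers. The 10 fibroblast markers summed to 3.14 in PID+ cells against 36.3 in PID- cells, with Col1a2 the most abundant in PID- cells at 11.9, and Lum listed at 0 in both. The 8 immune markers summed to 22.1 and 17.2, nearly all of it Cd68 (21.8 and 16.8), while Ptprc stood at 0.0264 and 0.00811 and Cd3e at 0. The 6 endothelial markers summed to 4.06 and 1.41, mostly Kdr (3.33 and 1.01). Their part in the repair gene values was not tested, and fewer cells of a type and less RNA per cell cannot be told apart. Marker transcripts made by the tumor cells themselves and by other cells among them also cannot be told apart in pooled values.

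The repair genes as a list had higher FPKM in PID+ cells. Of the 42, 33 were higher and 9 lower, with a median log2 change of 0.40, where the change is log2((FPKM in PID+ + 1)/(FPKM in PID- + 1)), on which genes of low FPKM look closer together than by their ratio. The median over all genes was 0 and over the 11480 expressed genes (mean FPKM of the conditions 1 or more), which include all 42, it was -0.01. The direction depended on how the conditions were scaled. With equal totals or equal upper quartiles 33 were higher and 9 lower, and with the chromosome median subtracted 36 and 6. Gapdh, a glycolytic enzyme often used as a reference, had 2570 FPKM in PID+ cells against 1666 in PID- cells. When it was set equal 14 repair genes were higher and 28 lower. That scaling moved the median of the expressed genes to -0.57, so that the median of the repair genes, -0.15, still lay 0.42 above it, against 0.41 with the FPKM as deposited.

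On the FPKM + 1 scale, 9 of the 42 genes (21.4%) were at least 2-fold higher and 0 at least 2-fold lower in PID+ cells. Among the expressed genes 6.00% were at least 2-fold higher and 6.86% at least 2-fold lower. Among all 21959 genes these shares were 3.31% and 3.77%. Of the 92 other genes of the same pathways 7.61% were at least 2-fold higher and 0 lower. The list of 42 was chosen with earlier results of these data known, so its share of 21.4% is not a test of repair genes as a class. The 9 genes were Mgmt, Exo1, Palb2, Blm, Brca1, Ung, Ercc1, Fanci and Fancd2. At 1.5-fold, 14 repair genes (33.3%) were higher against 14.2% of the expressed genes, and 0 were lower against 15.3%. At 3-fold, 1 repair gene (2.38%), Mgmt, was higher against 1.99%, and 0 were lower against 3.28%. With Gapdh set equal 1 gene, Mgmt, was at least 2-fold higher, beside 2.25% of the expressed genes higher and 20.5% lower. At 1.5-fold under that scaling 5 repair genes (11.9%), Mgmt, Exo1, Palb2, Blm and Brca1, were higher against 4.70% of the expressed genes, and 7 (16.7%) were lower against 48.5%.

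The deposited confidence intervals were wide. Their median half-width over the repair genes was 99.6% of the FPKM in PID+ and 110% in PID- cells, the lower bound was 0 for 21 genes in PID+ and 26 in PID- cells, and the intervals of the conditions overlapped for all 42 genes. Among the expressed genes 1.38% had intervals apart. The repair genes were expressed at moderate levels, with a median of 11.3 FPKM in PID+ cells against 8.17 in PID- cells. Msh6 was the most abundant in both conditions (53.8 and 45.5), Rad51c the least in PID+ cells (1.59) and Palb2 the least in PID- cells (1.99).

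**Figure D1:**
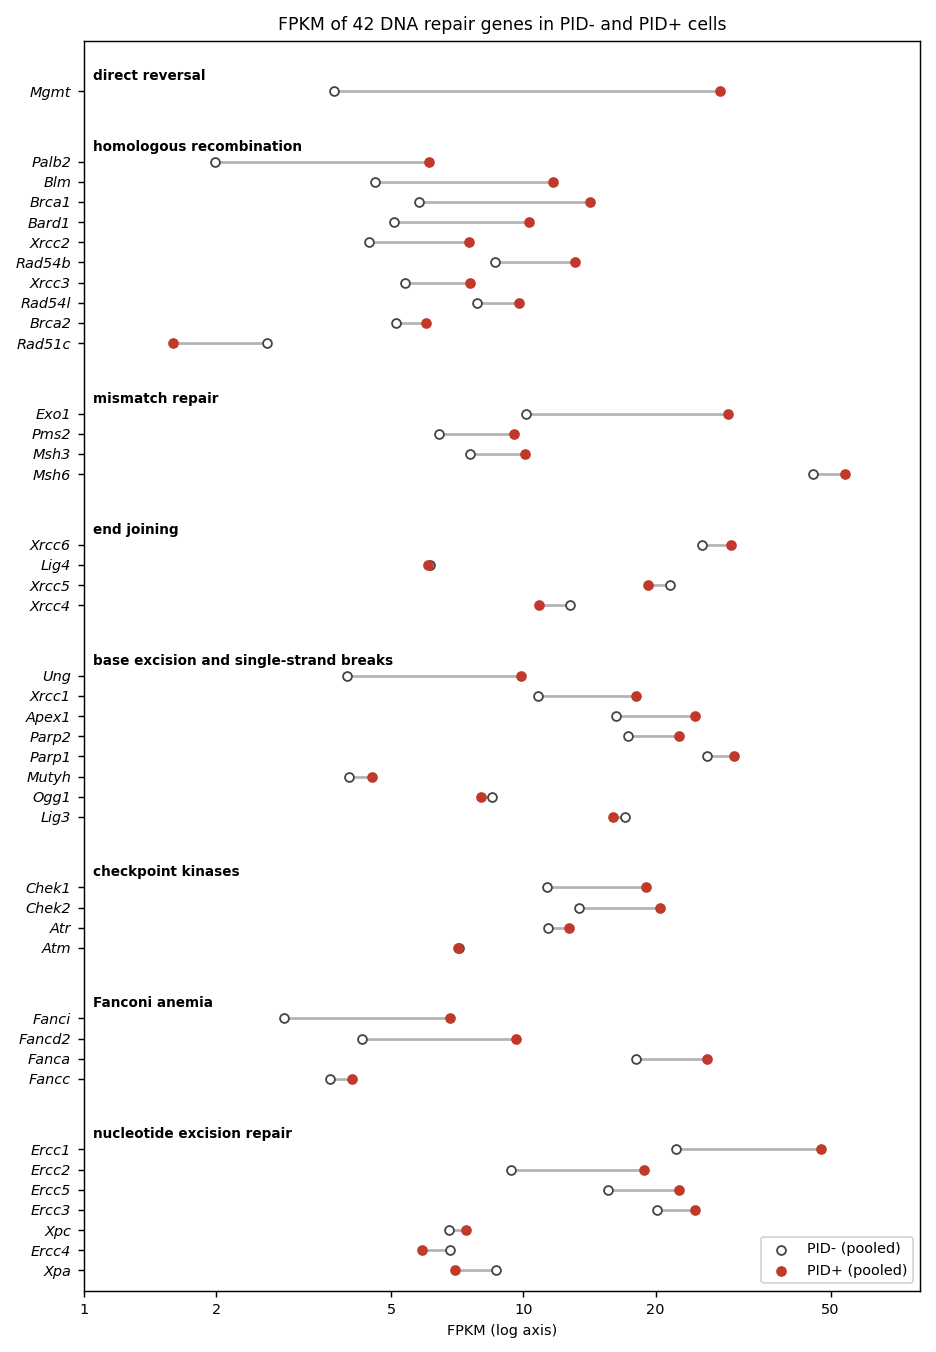
Pooled FPKM (log axis) of the 42 repair genes in PID- cells (open circles) and PID+ cells (filled circles), grouped by pathway, with 1 value per gene and condition and no error drawn. Mgmt has the longest line, from 3.71 to 28.1; 33 genes lie higher in PID+ cells as deposited, and 14 when Gapdh is set equal.

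Mgmt had the largest difference of the list. Mgmt (ENSMUSG00000054612.3, chr7:136894614-137130266 on the plus strand of GRCm38) had 28.1 FPKM in PID+ cells (deposited interval 4.21 to 51.9) against 3.71 in PID- cells (0 to 8.75). The ratio of these values was 7.56, and on the FPKM + 1 scale the log2 change was 2.63. Ranked from the most raised in PID+ cells downward, so that lowered genes come last, it was 30 among the 21959 genes. The intervals overlapped between 4.21 and 8.75. By FPKM Mgmt ranked 6 of the 42 repair genes in PID+ cells and 38 in PID- cells, near the high end of the list in PID+ cells and near its low end in PID- cells. No other coding gene overlaps its exons in the annotation. The change was 2.03 with Gapdh set equal and 2.38 with the median of its chromosome subtracted. The other enzymes of direct reversal, Alkbh2 and Alkbh3, which oxidize alkyl groups off bases, differed less. Alkbh2 had 13.3 FPKM in PID+ cells against 7.004 in PID- cells, with a log2 change of 0.84, and Alkbh3 had 31.0 and 34.6, a log2 change of -0.15.

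Most of the expressed genes around Mgmt differed by less than 1.5-fold between the conditions. Of 18 genes within 2 Mb, 9 had an FPKM under 1 in both conditions. Of the other 9, 2 were higher in PID+ cells by 1.5-fold or more and 0 lower, against 14.2% and 15.3% of all expressed genes. Mki67, the proliferation antigen and the nearest expressed gene upstream (chr7:135689784-135716361), had 68.9 FPKM in PID+ cells against 29.4 in PID- cells, with a log2 change of 1.20. Stk32c, a kinase gene at the far end of the window, had 2.23 and 0.538, a log2 change of 1.07. Next to Mgmt downstream, the transcription factor gene Ebf3 had an FPKM of 0.0165 and 0.0030. Glrx3, a glutaredoxin beyond it, had 101 in PID+ cells against 76.8 in PID- cells, with a log2 change of 0.39. Mki67 is the gene next to Mgmt upstream in the table. Other genes of the window differed little, such as Ptpre (4.74 and 6.36, log2 change -0.36) and Bnip3 (53.05 and 51.8, log2 change 0.03).

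**Figure D2:**
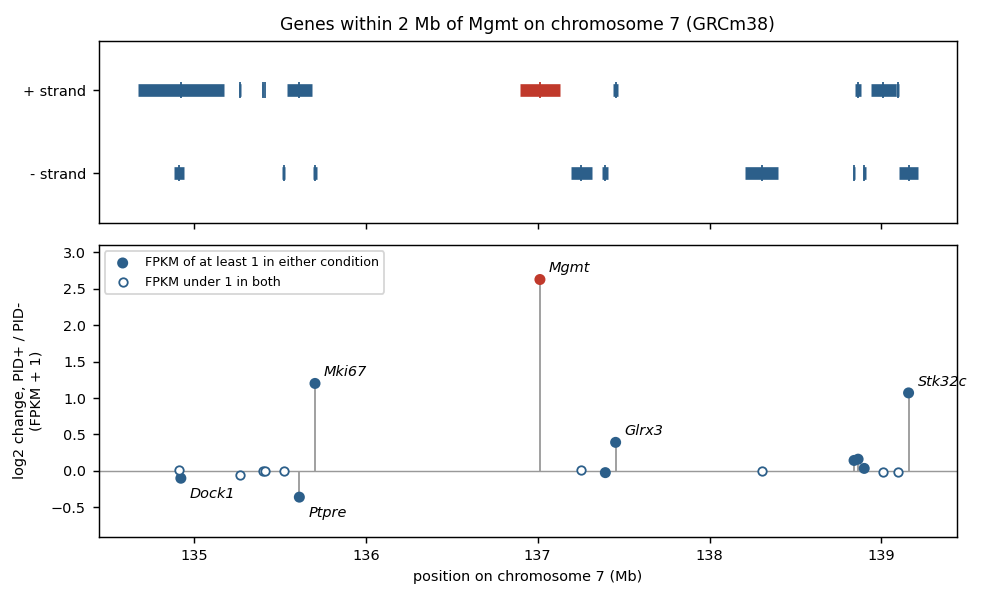
Genes within 2 Mb of Mgmt on chromosome 7 (upper panel, position in Mb by strand) and their log2 change of FPKM + 1 between PID- and PID+ cells (lower panel, 1 pooled value per condition; filled circles, FPKM of at least 1 in either condition). Mgmt stands at 2.63, Mki67 at 1.20 and Stk32c at 1.07, and the other genes lie between -0.36 and 0.39.

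Homologous recombination, which copies the sister chromatid to mend broken DNA, was higher in PID+ cells for 9 of 10 genes. Its median log2 change was 0.60 and became 0.05 (5 of 10 higher) with Gapdh set equal. Of the expressed genes 49.4% were higher as deposited, and their median with Gapdh set equal was -0.57. The counts and medians of this and the following pathways are to be read beside those values. Together the 10 genes reached 87.7 FPKM in PID+ cells against 51.5 in PID- cells. Palb2, which joins the Brca1 and Brca2 proteins, had the largest change, with 6.09 FPKM in PID+ cells (interval 0 to 12.4) against 1.99 in PID- cells (0 to 4.67), a log2 change of 1.25. Blm, a helicase that dissolves recombination intermediates, had 11.7 (4.20 to 19.1) and 4.61 (0.849 to 8.37), a log2 change of 1.17. Brca1, a ubiquitin ligase subunit that promotes resection of broken ends and the most abundant of the group in PID+ cells, had 14.2 (2.78 to 25.6) and 5.78 (0.125 to 11.4), a log2 change of 1.16. Bard1, the partner of Brca1 in that ligase, was close behind. It had 10.3 (3.81 to 16.8) and 5.07 (1.30 to 8.83), a log2 change of 0.90 that passed 2-fold (1.01) with a pseudocount of 0.1. Xrcc2, which helps strand exchange in recombination, had 7.54 (0 to 15.5) and 4.45 (0 to 9.38), a log2 change of 0.65. Brca2, which acts at resected ends, differed little from one condition to the other, with 5.99 and 5.13 and a log2 change of 0.19. Palb2 and Bard1 thus stood further apart between the conditions than Brca2, a comparison of single genes made after their values were seen. Rad54l and Rad54b, motor proteins that help strand exchange, had log2 changes of 0.28 and 0.55, and Xrcc3 of 0.43. Rad51c was the exception, with 1.59 FPKM in PID+ cells (0 to 4.02) against 2.61 in PID- cells (0 to 6.36), a log2 change of -0.48 and the lowest of all 42 genes.

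In the Fanconi anemia pathway, which unhooks crosslinks between strands, all 4 genes were higher, and their median of 0.75 became 0.18 (2 of 4 higher) with Gapdh set equal. Fanci and Fancd2 encode the subunits of the clamp that is ubiquitinated at a crosslink, and they lay side by side in size of change. Fanci had 6.81 FPKM in PID+ cells (0 to 14.7) against 2.86 in PID- cells (0 to 8.39), with a log2 change of 1.02. Fancd2 had 9.60 (0.162 to 19.0) and 4.29 (0 to 9.84), a log2 change of 1.001. Both were just past 2-fold and fell short of it with totals set equal (0.93 and 0.91). The core complex gene Fanca was the most abundant of the group, with 26.1 and 18.1, but its intervals reached 237 and 264, wider than those of any other gene of the group. Fancc, another core complex gene, had 4.08 and 3.64, a log2 change of 0.13.

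Mismatch repair, which corrects errors of replication, was higher for all 4 genes, with a median of 0.44 that became -0.12 (1 of 4 higher) with Gapdh set equal. Exo1, the exonuclease that removes the strand with the error, had 29.2 FPKM in PID+ cells (0 to 60.1) against 10.1 in PID- cells (0 to 24.8), with a log2 change of 1.44 and the largest after Mgmt. The genes that recognize the mismatch and pass on the signal differed less. Msh6, which recognizes single mismatched bases, had 53.8 (18.3 to 89.2) and 45.5 (13.4 to 77.6), a log2 change of 0.24. Msh3, which recognizes larger loops, had a log2 change of 0.38, and Pms2, the endonuclease subunit, of 0.50.

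End joining, which ligates broken ends without a template, stood apart from these groups in that its listed genes were nearly level. Of its 4 genes 1 was higher and 3 lower, the median was -0.08, and their FPKM summed to 65.8 in each condition. Less the median of its genes' chromosomes, the group median was 0.0044, and with Gapdh set equal it was -0.64 with all 4 lower. Xrcc6, a subunit of the Ku ring that grips broken ends and the most abundant gene of the group, had 29.6 FPKM in PID+ cells (1.001 to 58.3) against 25.4 in PID- cells (0 to 52.5), with a log2 change of 0.21. Its partner Xrcc5 went the other way in size, with 19.2 and 21.5, a log2 change of -0.15. The ligase Lig4 had 6.07 and 6.13, and its scaffold Xrcc4 had 10.9 and 12.8, a log2 change of -0.21.

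Base excision and single-strand break repair, which replace damaged bases and seal nicks, were higher for 6 of 8 genes, with a median of 0.28 that became -0.29 (2 of 8 higher) with Gapdh set equal. Ung, which cuts uracil out of DNA, had 9.86 FPKM in PID+ cells (0 to 20.2) against 3.97 in PID- cells (0 to 9.71), with a log2 change of 1.13. The other glycosylases of the list were nearly level: Mutyh, which removes adenine opposite oxidized guanine, had a log2 change of 0.14, and Ogg1, which removes oxidized guanine itself, of -0.08. Xrcc1, the scaffold of single-strand break repair, had 18.0 (5.52 to 30.6) and 10.8 (2.099 to 19.4), a log2 change of 0.69. Its ligase Lig3 was nearly level, with 16.01 and 17.01 and a log2 change of -0.08. Parp1, the main sensor of nicks and the most abundant gene of the group, had 30.1 (6.45 to 53.7) and 26.2 (6.01 to 46.4), a log2 change of 0.19. Parp2, a second sensor, had a log2 change of 0.36, and the endonuclease Apex1, which cuts at sites without a base, of 0.57.

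Nucleotide excision repair, which cuts out bulky and ultraviolet lesions, was higher for 5 of 7 genes, with a median of 0.28 that became -0.32 (2 of 7 higher) with Gapdh set equal. Ercc1, the partner of the nuclease Ercc4 and the most abundant gene of the group, had 47.4 FPKM in PID+ cells (6.11 to 88.8) against 22.2 in PID- cells (0 to 46.3), with a log2 change of 1.06. Ercc4 itself was slightly lower, with 5.87 and 6.80, a log2 change of -0.18, so the subunits of this nuclease differed in direction as deposited. With Gapdh set equal Ercc1 was at 0.45 and Ercc4 at -0.70. With the chromosome median subtracted both were higher, Ercc1 at 0.82 and Ercc4 at 0.32. Ercc2, a helicase of transcription factor TFIIH, had 18.8 (0 to 51.0) and 9.36 (0 to 24.8), a log2 change of 0.93. The other helicase of that factor, Ercc3, had a log2 change of 0.28, and Ercc5, the nuclease on the opposite side of the lesion, of 0.51. The damage sensor Xpc had 0.11 and the scaffold Xpa -0.27.

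The checkpoint kinases were higher for 3 of 4 genes, with a median of 0.36 that became -0.22 (1 of 4 higher) with Gapdh set equal. Chek1 and Chek2, which carry the signal onward, had the larger changes of the group, and neither reached 2-fold. With Gapdh set equal they were at 0.11 and -0.01. Chek1 had 19.0 FPKM in PID+ cells (1.16 to 36.9) against 11.3 in PID- cells (0 to 23.8), with a log2 change of 0.70. Chek2, the most abundant of them, had 20.4 (0 to 41.01) and 13.4 (0 to 30.2), a log2 change of 0.58. The kinases that sense the damage were close to level, Atr with a log2 change of 0.15 and Atm with -0.01.

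**Figure D3:**
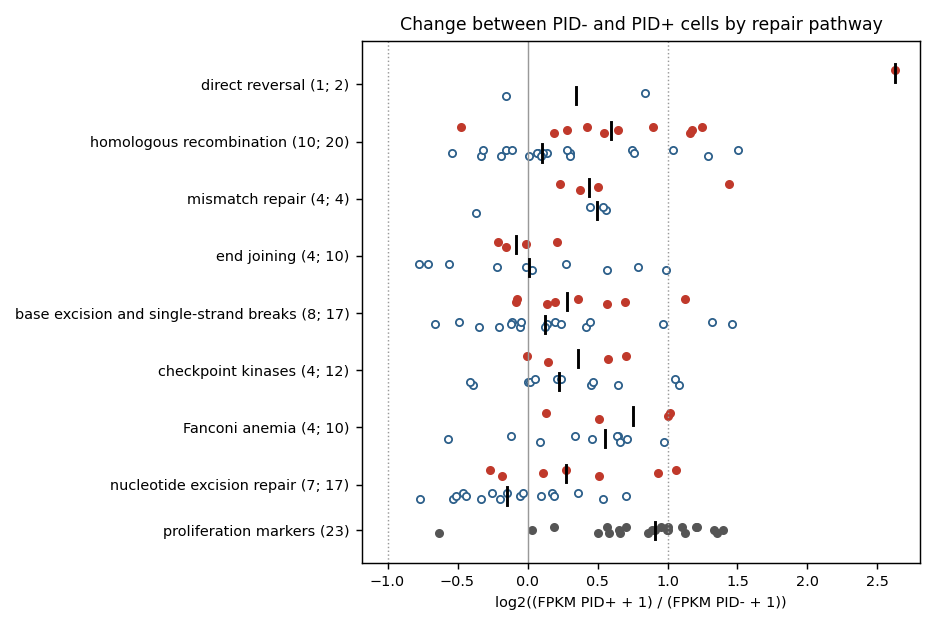
Log2 change of FPKM + 1 between PID- and PID+ cells for the repair genes (filled red), other genes of each pathway (open blue) and proliferation markers (grey), with numbers of genes in parentheses (listed genes; other genes), black bars at the medians and dotted lines at 2-fold. The medians of the listed genes run from -0.08 in end joining to 0.75 in the Fanconi anemia pathway, Mgmt aside. With Gapdh set equal, those of homologous recombination and the Fanconi anemia pathway stay above 0, and the median of the expressed genes is -0.57.

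The other 92 genes of these pathways had a smaller median difference. Their median log2 change was 0.10, with 56 higher and 36 lower, and 26 higher and 66 lower with Gapdh set equal. At least 2-fold higher were 7 of them (7.61%), against 6.00% of the expressed genes, and 0 were 2-fold lower, against 6.86%. With Gapdh set equal 0 were at least 2-fold higher and 11 (12.0%) at least 2-fold lower, against 2.25% and 20.5% of the expressed genes under that scaling. Rad51ap1, an accessory protein of recombination, had 17.3 FPKM in PID+ cells against 5.44 in PID- cells, with a log2 change of 1.51. The replicative ligase Lig1 had 46.9 and 16.4, a log2 change of 1.46. The flap endonuclease Fen1, which also works on the lagging strand, had 26.7 and 10.1, a log2 change of 1.32. These, together with the nuclease subunit Eme1 (log2 change 1.29) and the checkpoint proteins Topbp1 (1.08) and Clspn (1.06), act mostly at replication forks or on replicated DNA. By pathway the medians of the other genes were 0.55 for the Fanconi anemia pathway, 0.49 for mismatch repair, 0.23 for checkpoint genes, 0.12 for base excision, 0.10 for homologous recombination, 0.01 for end joining and -0.14 for nucleotide excision repair. The 10 other end joining genes went both ways, with Rif1 (0.99) and Polm (0.79) past 1.5-fold higher and Paxx (-0.77) and Prkdc (-0.71) past 1.5-fold lower. The Fanconi anemia and mismatch repair groups were the highest of these as deposited, and mismatch repair was at -0.08 with Gapdh set equal. In nucleotide excision repair 6 of the 17 other genes were higher and 11 lower, against 5 of 7 higher among the listed genes.

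Transcripts of proliferation markers were higher beside the repair genes; cell division itself was not analysed here. Of 23 markers 22 had a higher FPKM in PID+ cells, 9 of them (39.1%) at least 2-fold, against 6.00% of the expressed genes, with a median log2 change of 0.91, and the list summed to 2123 in PID+ against 1304 in PID- cells. With Gapdh set equal the median was 0.30 and 17 were higher, but 0 were at least 2-fold higher and 1 (4.35%), Rrm2, was at least 2-fold lower, against 2.25% and 20.5% of the expressed genes. Top2a, a topoisomerase of dividing cells and the most abundant of them in PID+ cells, had an FPKM of 257 and 138. Mcm2, a subunit of the replicative helicase, had the largest change, with 58.7 and 21.7 and a log2 change of 1.39. Rrm2, which makes deoxyribonucleotides, was lower, with 149 in PID+ cells against 231 in PID- cells, with a log2 change of -0.63. None of the markers was at 0. Their part in the repair gene values was not tested.

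Position on the chromosomes was read after the values were seen. Of the 9 genes at least 2-fold higher 5 lie on chromosome 7 (Mgmt, Palb2, Blm, Fanci and Ercc1), and the 7 listed genes on that chromosome, with Ercc2 and Xrcc1 besides, all had log2 changes of 0.69 or more. Their median was 1.06, against 0.28 for the 35 genes elsewhere. As deposited, the chromosome as a whole was higher in PID+ cells by less: its 646 genes with a mean FPKM of 5 or more had a median of 0.25. Of its 845 expressed genes 10.5% were at least 2-fold higher. Other chromosomes were off 0 as well, with medians from -0.50 on chromosome 16 to 0.34 on chromosome 6. When the median of each chromosome was subtracted 5 repair genes stayed past 2-fold higher, Mgmt, Exo1, Palb2, Brca1 and Ung, with Palb2 at the very edge of that threshold, beside 5.91% of the expressed genes higher and 6.498% lower. When instead the median of genes within 5 Mb was subtracted, 6 were past 2-fold, those 5 and Bard1, beside 5.98% of the 11448 expressed genes with such a median higher and 6.47% lower. Palb2 lies near a marker of mitosis, Plk1 (chr7:122159439-122169873), which had 50.1 FPKM in PID+ cells against 22.5 in PID- cells, with a log2 change of 1.12.

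Some genes share exons with a neighbor, so that their reads cannot be told apart with certainty. This applies to 18 of the 42 genes and to 3 of the 9 past 2-fold. Fanci overlaps Polg, the mitochondrial DNA polymerase, which had 28.9 FPKM in PID+ cells against 20.8 in PID- cells, with a log2 change of 0.46. Ercc1 overlaps Cd3eap, a subunit of RNA polymerase I, which had 15.3 and 6.84, a log2 change of 1.06 like its own. Fancd2 overlaps Fancd2os, which had 0.253 and 0.154. Of the genes past 1.5-fold, Ercc2 overlaps the kinesin light chain Klc3, whose log2 change was 1.33. Mgmt, Exo1, Palb2, Blm, Brca1 and Ung have no such overlap.

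The promoters were searched for short sequence words. RefSeq promoters of GRCm38.p6, 250 bases before to 50 after the start of a gene, were matched for 36 of the 42 genes. E2F words, which bind the factors that drive S phase genes, were searched on both strands as TTTGGCGC, TTTCCCGC, TTTGCCGC and TTTCGCGC, and words at a site may overlap. At least 1 was found in 7 of the 36 genes (19.4%), against 2.61% of all 27025 genes and 2.26% of all 32851 promoters, and 4.97% of the 9027 expressed genes with a promoter. Of the 11 matched genes at least 1.5-fold higher in PID+ cells 1 held a word, Bard1, as did 6 of the other 25. The CCAAT box (CCAAT) was in 58.3% of the repair genes, 41.1% of all genes and 43.3% of expressed genes, and the cell cycle element CHR (TTTGAA) in 5.56%, 20.2% and 14.0%. These matches describe the sequence and are not binding sites. The stretches around the E2F words of Bard1 (chr1:71103158-71103197, minus strand), Brca2 (chr5:150522437-150522476, plus strand), Chek2 (chr5:110839815-110839854, plus strand) and Msh6 (chr17:87975049-87975088, plus strand) are shown because they set Bard1, with a log2 change of 0.90, beside genes with the same word and smaller changes of 0.19, 0.58 and 0.24. The same word was also found in Xrcc6 (log2 change 0.21) and in Rad51c (-0.48), the only gene of the 7 that was lower in PID+ cells. Capitals mark the word on either strand.
Bard1: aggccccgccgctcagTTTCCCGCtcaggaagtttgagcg
Brca2: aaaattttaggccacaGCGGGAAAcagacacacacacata
Chek2: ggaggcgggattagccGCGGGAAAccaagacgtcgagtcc
Msh6: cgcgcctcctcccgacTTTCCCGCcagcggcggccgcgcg

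The promoter of Mgmt is shown because that gene had the largest change and because human MGMT is known to be silenced by methylation of a CpG-rich promoter; methylation was not measured here. The RefSeq window at the start of the gene (chr7:136894336-136894635 of GRCm38.p6, plus strand) holds 20 CpG, against a median of 7 in all promoters and 21 in those of expressed genes. Capitals mark the GC box, GGGCGG or CCGCCC on the other strand, found 4 times here. This box was in 72.2% of the repair genes with a promoter, in 38.2% of all genes and in 70.8% of expressed genes, so it is common among expressed genes. No E2F word or CCAAT box was found in the window. Another RefSeq start of Mgmt (chr7:136912848-136913147) has 3 CpG and no GC box.
Mgmt: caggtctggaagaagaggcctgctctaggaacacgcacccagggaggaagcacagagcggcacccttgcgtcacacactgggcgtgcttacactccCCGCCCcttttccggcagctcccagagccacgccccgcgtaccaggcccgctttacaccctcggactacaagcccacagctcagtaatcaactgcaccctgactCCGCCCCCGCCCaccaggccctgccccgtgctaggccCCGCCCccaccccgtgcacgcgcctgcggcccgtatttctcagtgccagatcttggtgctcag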

How the data were processed

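The authors trimmed reads with cutadapt, checked them with FastQC, aligned them with TopHat and Bowtie2 to GRCm38.p3 against protein coding gene models, with the 3 sets of a condition merged, and deposited the gene-level FPKM of CuffDiff with compatible hits normalization, with the bounds of its confidence intervals. The authors' scaling between the conditions and the annotation release are not given in the sources used here. The treated condition of the table was read as PID+ and the untreated condition as PID-, after the labels. This reading sets the sign of every change, and no value for the PID transgene was there to check it. Of 21966 genes, 21734 had a symbol, and 7 without a passing status in both conditions were left out.

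From these values log2((FPKM in PID+ + 1)/(FPKM in PID- + 1)) was computed, with thresholds of 2-fold, 1.5-fold and 3-fold. These are descriptions of pooled libraries, not tests. The conditions were also scaled to equal totals, to equal upper quartiles or to equal Gapdh, the chromosome median was subtracted (from genes of mean FPKM 5 or more), the pseudocount was set to 0.1, and genes below a mean FPKM of 1 were dropped. The median of genes within 5 Mb was added after seeing the data. Genes named are all members at least 1.5-fold different, the most abundant and the largest change of each group, other pathway genes past 2-fold and neighbors of Mgmt; others were chosen after their values were seen. Some genes that this rule or the lists cover are not reported here. The members and lists were chosen with earlier results of these data known.

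Positions and exon overlaps came from Gencode M21 (GRCm38), promoters from RefSeq (GRCm38.p6). The depth is not known. Low values of genes with 1 transcript fell on steps, with 87.9% (630 values, PID+) and 87.7% (587 values, PID-) less than 0.1 from whole reads, where values without steps would give 20%, at a length correction of 190 bases, the best of 31 tried. The FPKM per read was 1.39 times that of PID- cells in PID+ cells. By this estimate the lowest member, Rad51c, had about 812 reads, an approximate figure. The fold rule was checked on simulated data. Python 3.11.15, numpy 2.4.6, pandas 2.3.3 and matplotlib 3.10.9 were used.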

Additional observations from a re-analysis of the deposited data

How the results depend on the processing

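The count of 9 repair genes at least 2-fold higher, of 0 at least 2-fold lower, the median of 0.40 and the log2 change of Mgmt of 2.63 were recomputed under the alternatives that apply to them; the thresholds of 1.5-fold and 3-fold apply to the counts, and the filter on low FPKM to the counts and medians. Scaling to equal Gapdh moved most: it left 1 gene past 2-fold (Mgmt), a median of -0.15, a log2 change of 2.03 for Mgmt, and pathway medians of -0.12 for mismatch repair, -0.29 for base excision and single-strand breaks, -0.22 for checkpoint kinases and -0.32 for nucleotide excision repair. It also lowered homologous recombination to 0.05 and the Fanconi anemia pathway to 0.18. By construction it multiplies every PID+ value by 0.648. Equal totals moved the median of expressed genes to -0.10 and left 6 of the 9 genes past 2-fold. Beside them 5.15% of the expressed genes were at least 2-fold higher and 8.14% lower. Equal upper quartiles left all 9, beside 6.04% higher and 6.84% lower. Subtracting the chromosome median left 5 genes, and put end joining at 0.0044. A threshold of 1.5-fold gave 14 genes and of 3-fold 1 gene, by construction. A pseudocount of 0.1 gave 10 genes, the 9 and Bard1, beside 7.57% of the expressed genes at least 2-fold higher and 8.56% lower. Subtracting the median of genes within 5 Mb, chosen after seeing the data, gave 6 genes, a median of 0.47 and 2.34 for Mgmt. The count of genes at least 2-fold lower was 0 under every one of these. Other causes of these shifts were not tested. A log2 change or median was counted as moved when it shifted by 1.5-fold or more, altered the sign or crossed 2-fold, and a count of genes when it differed by more than 1.5 times, so that 6 in place of 9 is not a move. There is no spread between replicates to set these against. By these rules 54 values of single genes moved and 186 did not, and of the counts, the medians and the change of Mgmt 11 moved and 62 did not. No paired analysis was possible because the deposited values are pooled and the labels share no replicate numbers, and no sample could be left out for the same reason. The depth is unknown, and the intervals cover the error model of CuffDiff only.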

Other observations

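Genes activated by p53, the transcription factor that responds to DNA damage, did not share a direction. Of 12 such genes 7 were higher in PID+ cells and 5 lower, with a median log2 change of 0.18, and 2 were higher with Gapdh set equal. Mdm2, the ligase that degrades p53, had 161 FPKM in PID+ cells against 75.5 in PID- cells, with a log2 change of 1.08. Gdf15, a secreted stress cytokine, had the largest change in the list, with 19.2 and 78.3, a log2 change of -1.97. Gadd45a, a growth arrest gene, was also lower, with 19.6 and 42.3, a log2 change of -1.07. Ccng1, a cyclin and the most abundant of them, was nearly level at 255 and 221. Cdkn1a, the inhibitor of cyclin-dependent kinases, had 99.2 and 62.0, a log2 change of 0.67.

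Genes often used as references also differed from each other. Rplp0, a ribosomal protein, had a log2 change of 0.72, close to the 0.62 of Gapdh. Hprt, a purine salvage enzyme on chromosome X, had 213 in PID+ cells against 388 in PID- cells, with a log2 change of -0.86. Actb and Ppia had 0.41 and 0.24, and Tbp, B2m and Gusb were nearly level, at -0.08, -0.12 and -0.04. The median of the 8 reference genes was 0.10 as deposited and -0.52 with Gapdh set equal.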
